A study of Homo sapiens with 3 samples.

Results

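The genes of the extracellular matrix described here are the collagen chains, the laminin chains and 14 further genes of matrix structure, namely FN1, FBN1, FBN2, SPARC, VCAN, HSPG2, AGRN, SRGN, TGFBI, THBS1, LOX, LOXL1, LOXL2 and LOXL3. They were chosen by name, as protein-coding genes whose symbols follow the collagen or laminin pattern or are on that list, with antisense genes left out. The rule gave 70 genes, 44 collagens, 12 laminins and the 14 others, among 57773 gene IDs counted. PolyA RNA was sequenced from NB4, an established human cell line of acute promyelocytic leukaemia known for its PML-RARA fusion, in which short hairpin RNAs had been expressed. There was 1 library with a non-targeting control hairpin and 2 libraries with hairpins against ARID1B, which encodes a subunit of BAF (SWI/SNF) complexes that move nucleosomes, hairpin 2 in one and hairpin 3 in the other. All 3 libraries are of the same cell line in the same medium with fetal bovine serum, and the labels do not say whether they came from separate infections or cultures. Counts are given below in the order control, hairpin 2, hairpin 3.

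The extracellular matrix is the network of secreted proteins that surrounds cells. Collagens are trimers of chains wound into a triple helix, and they form fibrils, the sheet-like networks of basement membranes, or short transmembrane molecules. Laminins are trimers of an alpha, a beta and a gamma chain that lay down basement membranes, and proteoglycans are core proteins that carry glycosaminoglycan chains. Blood cells make little of the structural matrix. Their main proteoglycan is serglycin, which is kept inside secretory granules where it binds proteases and other basic granule proteins.

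ARID1B itself checks the labels. Its counts were 5268, 2209 and 2234, so both hairpin libraries were low. It fell by 1.23 ± 0.125 on the log2 scale (SE; edgeR quasi-likelihood test, adjusted p = 1.4e-05). Library totals were 61640692, 59997475 and 62954803 counts. Of the promyelocyte markers MPO, PRTN3, AZU1, CTSG and CD33 each had at least 1672 counts in every library, while ELANE had 10, 4 and 1. Of these 6 markers PRTN3 rose (3363, 14914 and 13672 counts) and CTSG fell (6837, 1672 and 2183 counts), and the list summed to 11355, 14409 and 12394 CPM. With 1 control library an exact permutation test over libraries cannot go below p = 0.333, so the tests below are edgeR's, in which the spread is estimated from the pair of hairpin libraries and taken to apply to the single control. Such p-values reflect nothing beyond the spread of these libraries, and that spread may be technical.

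Of the 70 matrix genes 38 had enough reads to be tested, 4 (COL13A1, COL22A1, COL4A5 and COL6A5) had 0 counts in all libraries, and no untested gene had more than 9 counts in any library. After ARID1B silencing 6 of the 38 were higher, COL26A1, COL5A1, COL4A1, COL15A1, COL7A1 and SRGN, and 4 were lower, COL27A1, COL6A1, COL4A2 and AGRN (edgeR quasi-likelihood test, Benjamini-Hochberg adjusted p under 0.05 over all genes). That is 26.3% of the tested matrix genes, while 8.7% of all 20382 genes tested passed (5.49% higher and 3.21% lower). The median log2 fold change was 0.08 for the matrix genes and -0.01 for all genes tested. The 10 calls comprised 8 of 20 tested collagens and 2 of 3 tested proteoglycans, with 0 of 6 laminins, 0 of 5 other glycoproteins and 0 of 4 lysyl oxidases (at an unadjusted p under 0.05 these last counts were 0, 1 and 0, and 0 of the laminins, glycoproteins and lysyl oxidases passed in DESeq2). A gene that reached the minimum count only in the group where it is high had to differ, which holds for 6 of the 38 in the knockdown libraries, COL26A1 and COL5A1 among them, and for 2 in the control.

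**Figure D1:**
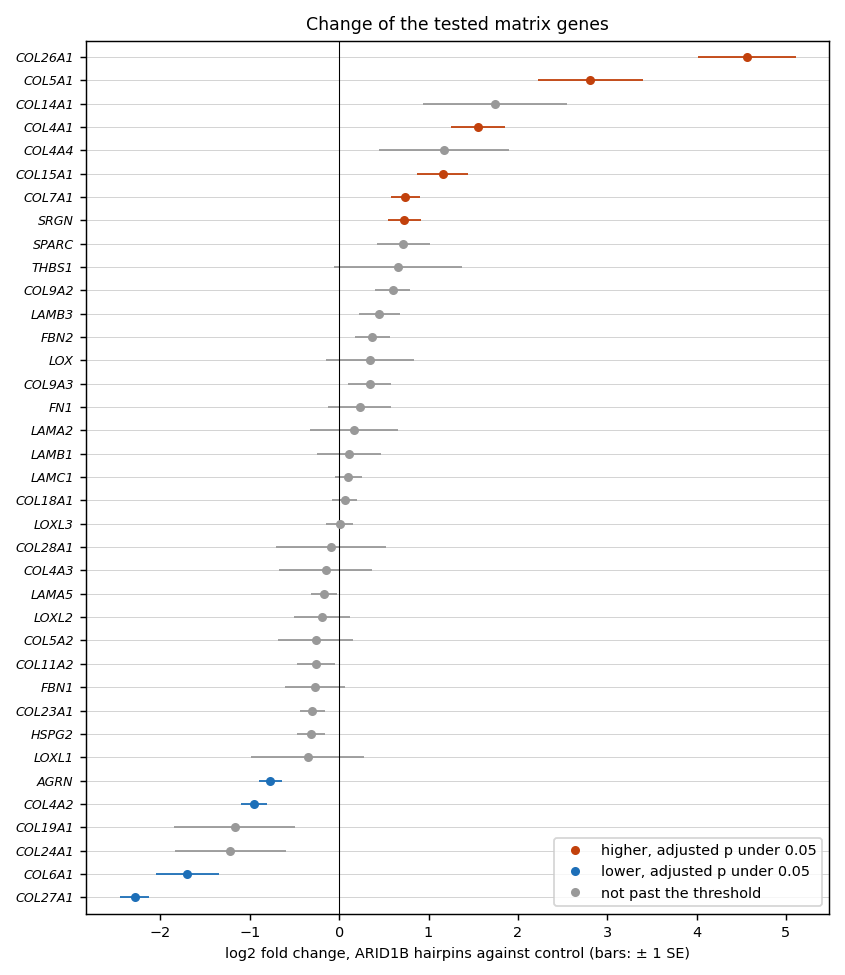
Log2 fold change of the tested matrix genes that are reported here, ARID1B hairpins against the control hairpin, with bars of 1 SE from the edgeR fit. The 6 genes called higher reach from SRGN at 0.73 to COL26A1 at 4.56, and the 4 called lower from AGRN at -0.77 to COL27A1 at -2.29.

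Levels differed over several orders of magnitude. Per kilobase of exon, the highest gene in the control library was SRGN at 699 CPM (counts scaled to library size) per kb, followed by COL23A1 at 43.8, LAMC1 at 12.6, AGRN at 7.19 and LOXL3 at 5.54. SRGN, serglycin, held 56.1%, 72.4% and 71.2% of the summed CPM of the 70 genes in the respective libraries. At the other end 33 of the 70 genes had at most 10 counts in each library. A count of 0 allows up to 3 counts, which equals 0.0483, 0.0499 and 0.0481 CPM in the respective libraries.

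**Figure D2:**
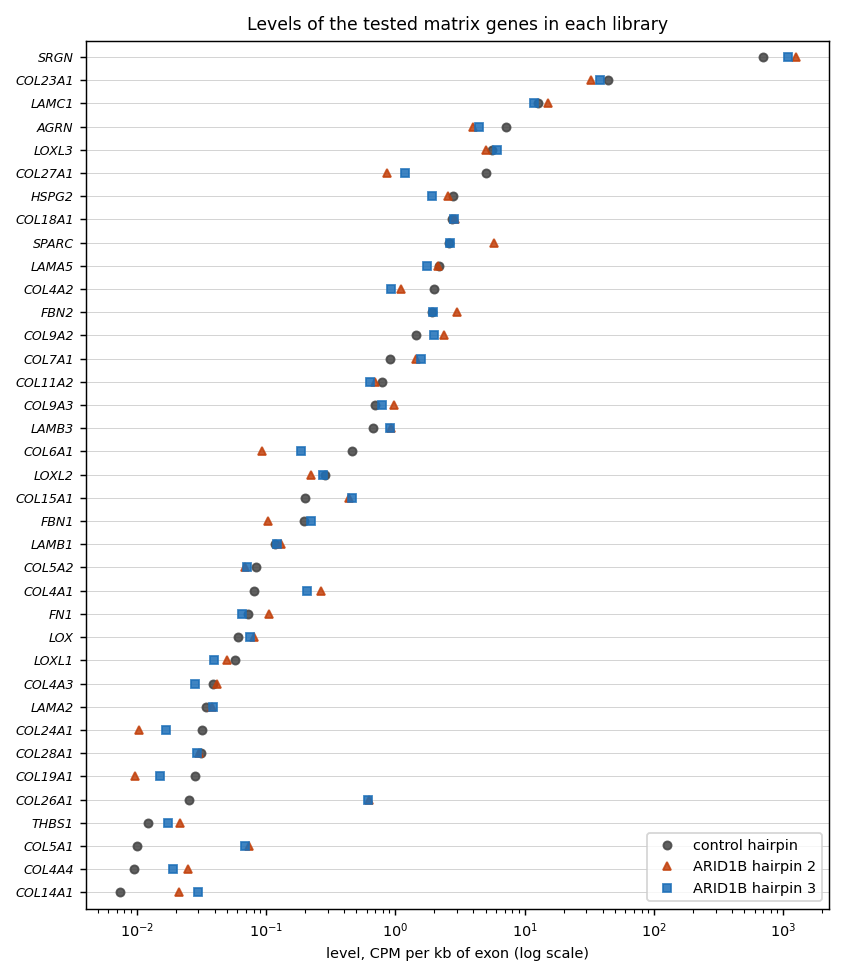
Level of the tested matrix genes reported here in the 3 libraries, as CPM per kb of exon on a log axis, ordered by the control library. SRGN stands highest in each library, and COL26A1 shows the widest gap between the control (0.0255) and the hairpin libraries.

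The fibrillar collagens changed in both directions. COL27A1, a fibrillar collagen best known from cartilage, was the most abundant of them per kb in the control and showed the largest fall of the 38 genes. Its counts were 4373, 725 and 1040, so both hairpin libraries lay far below the control. The ratio to the control was 0.171 under hairpin 2 (exact 95% counting interval 0.158 to 0.185) and 0.237 under hairpin 3 (0.221 to 0.254), and the fitted log2 fold change was -2.29 ± 0.161 (SE), 4.90-fold lower (edgeR adjusted p = 7.5e-07).

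COL5A1, the chain that starts the assembly of mixed fibrils with type I collagen, moved the other way. It rose from 7 counts in the control to 50 and 48 counts under hairpins 2 and 3. COL5A1 reached the minimum count only in the hairpin libraries, so it had to differ to be tested. The rise was 6.99-fold (log2 2.81 ± 0.587 SE, edgeR adjusted p = 0.00574). Its partner chain COL5A2 had 39, 31 and 33 counts and a log2 fold change of -0.26 ± 0.42, which did not pass. Per kb of exon, COL5A1 and COL5A2 stood at 0.0101 and 0.0843 CPM in the control. They were nearly level under hairpin 2 (0.0743 and 0.0692) and under hairpin 3 (0.0688 and 0.071). COL24A1, another fibrillar chain, had 19, 6 and 10 counts (-1.22 ± 0.62, not past the threshold), and COL11A2, a cartilage fibril chain, 332, 281 and 267 (-0.26 ± 0.211, not past the threshold). The chains of the common fibrils of connective tissue were near 0: COL1A1 had 2, 4 and 2 counts, COL1A2 had 0, 0 and 1, and COL3A1 had 1, 0 and 1.

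COL26A1, a short collagen with an EMI domain, showed the largest rise. Its counts were 5, 118 and 121, so the hairpin libraries were nearly equal and both far above the control. The ratios were 24.4 (exact 95% counting interval 10.2 to 76.4) and 24.1 (10.0 to 75.6). The fitted log2 fold change was 4.56 ± 0.549 (SE; edgeR adjusted p = 5.6e-05). COL26A1 reached the minimum count only in the hairpin libraries, so it had to differ to be tested. Its level went from 0.0805 CPM to 1.96 and 1.94 CPM under hairpins 2 and 3, still a low level beside SRGN.

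COL26A1 and COL27A1 mark the ends of the range of change, so the 250 bases before their start sites are shown. The bases were taken from a set of RefSeq promoters on GRCh38.p14 that held 52 of the 70 genes and 7 of the 10 called genes. They lie at chr7:101362625-101362874 and chr9:114155287-114155536, both on the plus strand, in front of the first exon. Capitals mark the CCAAT box, the GC box spelled GGGCGG and the TATA box spelled TATAAA, each searched on both strands.
COL26A1: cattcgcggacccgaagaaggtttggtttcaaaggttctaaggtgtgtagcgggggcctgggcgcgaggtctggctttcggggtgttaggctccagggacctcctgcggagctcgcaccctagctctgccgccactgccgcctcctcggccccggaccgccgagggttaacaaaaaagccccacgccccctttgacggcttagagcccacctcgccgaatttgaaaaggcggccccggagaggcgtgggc
COL27A1: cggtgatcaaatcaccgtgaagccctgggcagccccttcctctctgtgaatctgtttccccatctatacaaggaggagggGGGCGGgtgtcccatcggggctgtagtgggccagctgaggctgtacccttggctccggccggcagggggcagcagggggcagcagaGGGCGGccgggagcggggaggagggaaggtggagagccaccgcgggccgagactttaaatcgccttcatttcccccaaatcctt
The COL27A1 stretch holds GGGCGG 2 times and neither other motif, and none of the 3 motifs is in the COL26A1 stretch. Over 27305 RefSeq promoters, windows of this length hold CCAAT in 33%, GGGCGG in 42.3% and TATAAA in 11.1%. GC content was 64.8% and 64.4% for the pair, against a median of 58% over those promoters.

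Type IV collagen, the network-forming collagen of basement membranes, gave opposite changes in a pair of neighbouring genes. COL4A1 and COL4A2 encode the chains of its most widespread trimer and lie head to head, so that they are read in opposite directions from a shared promoter. COL4A1 rose from 74 counts in the control to 237 and 189 under hairpins 2 and 3 (log2 1.55 ± 0.303 SE, 2.92-fold, edgeR adjusted p = 0.00357). COL4A2 fell from 2371 counts to 1291 and 1121 (-0.95 ± 0.146 SE, 1.94-fold lower, adjusted p = 4.7e-04). For both genes the hairpin libraries were on one side of the control and close to each other.

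The chains were far from equal in level. Per kb of exon, COL4A1 stood at 4.09%, 24% and 22.1% of COL4A2. With the longest coding transcript as the length, these shares were 3.06%, 18% and 16.5%. The counts are per gene and do not tell which start site or transcript the reads came from. No exon of one gene overlaps the other in the annotation, and the antisense gene COL4A2-AS1 covers 0.42% of the exon length of COL4A2.

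The stretch between the RefSeq start sites of the pair is 126 bases long and lies at chr13:110307158-110307283 (GRCh38.p14, intergenic, shown on the plus strand, on which COL4A2 is read). It is shown because the genes with opposite changes face each other across it, and capitals mark the same motifs.
COL4A1-COL4A2: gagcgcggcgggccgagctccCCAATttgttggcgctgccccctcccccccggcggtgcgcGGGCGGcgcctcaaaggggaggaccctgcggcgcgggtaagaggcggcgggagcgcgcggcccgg
It holds CCAAT 1 time and GGGCGG 1 time, both as read on the plus strand, with no overlap between them, and no TATAAA. Of the 126 bases nearest to the start in the same set of RefSeq promoters, 21.9% hold CCAAT, 34.6% GGGCGG and 6.23% TATAAA on either strand. Its GC content is 80.2%, where the median over all promoters at that length is 59.5%.

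The other type IV genes were low. COL4A3 and COL4A4, another head-to-head pair whose chains form the network of the kidney filter, had 22, 23 and 16 counts and 6, 15 and 12 counts. Their log2 fold changes of -0.15 ± 0.522 and 1.17 ± 0.728 did not pass the threshold. COL4A6 had 7, 4 and 3 counts and its partner COL4A5 had none.

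COL6A1, a chain of the beaded filaments of type VI collagen, had 152, 30 and 62 counts. Both hairpin libraries were lower, hairpin 2 more so, and the log2 fold change was -1.70 ± 0.35 (SE; 3.26-fold lower, edgeR adjusted p = 0.00511). Type VI collagen also needs the chains of COL6A2 and of COL6A3 or a relative. COL6A2 had 0, 0 and 1 counts and COL6A3 had 1, 6 and 5, so the partners of COL6A1 were at or near the floor in the control as well as after silencing.

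Apart from type IV, 2 collagens of basement membranes and their anchors rose. COL7A1, which builds the anchoring fibrils below the epidermis, had 625, 968 and 1086 counts (log2 0.74 ± 0.164 SE, edgeR adjusted p = 0.00926). COL15A1, a basement membrane collagen with side chains, had 83, 174 and 191 counts (1.16 ± 0.287 SE, adjusted p = 0.0184). In both genes each hairpin library was above the control. The closest relative of COL15A1, COL18A1, from which endostatin is cut, had 1460, 1479 and 1519 counts and a log2 fold change of 0.06 ± 0.142. COL18A1 shares 16.4% of its exon length with SLC19A1 on the other strand, and the sources used here do not give whether the counting used strand.

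The transmembrane collagen COL23A1 was the second most abundant member per kb. Its counts were 10239, 7437 and 8995. Both hairpin libraries were below the control, at ratios of 0.75 (exact 95% counting interval 0.728 to 0.773) and 0.875 (0.85 to 0.9), but the fitted change of -0.30 ± 0.136 (SE) did not pass (edgeR adjusted p = 0.218). COL9A2 and COL9A3 encode chains of type IX collagen, which sits on the surface of cartilage fibrils. COL9A2 had 378, 600 and 527 counts (0.60 ± 0.195, edgeR adjusted p = 0.0718), and COL9A3 had 210, 286 and 236 (0.34 ± 0.24, adjusted p = 0.485). COL9A1, the remaining chain of the type, had 0, 0 and 1 counts. COL14A1, which binds to fibril surfaces, had 4, 11 and 16 counts, and its log2 fold change of 1.74 ± 0.807 was the largest that did not pass.

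**Figure D3:**
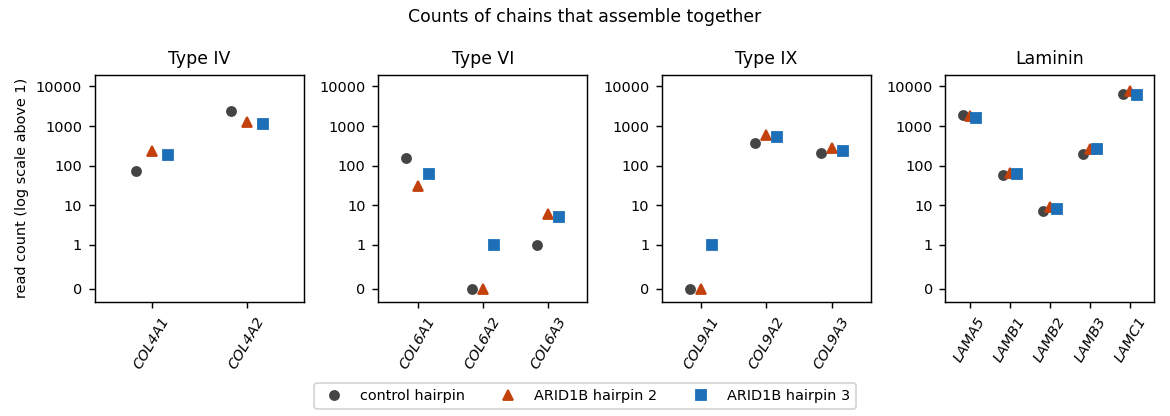
Read counts of chains that assemble into one molecule, by library, on an axis that is logarithmic above 1. COL4A1 and COL4A2 approach each other under the hairpins (74 and 2371 counts in the control), and COL6A2, COL6A3 and COL9A1 lie at 6 counts or fewer in each library.

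None of the 6 tested laminin chains passed the threshold. LAMC1, the gamma chain of most laminins, had 6570, 7692 and 6178 counts, on either side of the control (log2 0.10 ± 0.151 SE). LAMA5, the alpha chain of many adult basement membranes, had 1944, 1824 and 1575 counts (-0.17 ± 0.148). Beta chains were much lower than LAMC1. LAMB1 had 59, 64 and 62 counts and LAMB2 had 7, 9 and 8. LAMB3, the beta chain of the laminin that anchors the epidermis, was the most abundant of them, with 195, 260 and 264 counts, and both hairpin libraries lay above the control without passing the test (0.45 ± 0.232, edgeR adjusted p = 0.3). Per kb of exon, LAMB3 stood at 5.32%, 6.06% and 7.66% of LAMC1 and LAMB1 at 0.927%, 0.859% and 1.04%. LAMA2 had 22, 24 and 25 counts, and LAMA1, LAMA3, LAMA4, LAMB4 and LAMC3 had at most 9 in any library.

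Serglycin and agrin, both proteoglycans, changed in opposite directions. SRGN had 52973, 91291 and 82244 counts, so its level rose from 853 CPM to 1419 ± 141 CPM (SD, n = 2). Both hairpin libraries were above the control, with ratios of 1.78 (exact 95% counting interval 1.76 to 1.8) and 1.55 (1.53 to 1.56), and the gene rose by 0.73 ± 0.181 on the log2 scale (SE; edgeR adjusted p = 0.0175). AGRN, a heparan sulfate proteoglycan known for organising the neuromuscular synapse, fell from 4804 counts to 2593 and 2969 (-0.77 ± 0.129 SE, 1.71-fold lower, adjusted p = 0.00107). HSPG2, or perlecan, the large heparan sulfate proteoglycan of basement membranes, had 3135, 2765 and 2163 counts. Its log2 fold change of -0.32 ± 0.156 did not pass (edgeR adjusted p = 0.253), and 11.7% of its exon length is shared with LDLRAD2 on the other strand. VCAN, the versican of monocytes and stroma, had 4, 3 and 6 counts and was not tested.

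Granule-rich blood cells are known for their serglycin, and markers of such cells moved in the same libraries. Of 7 eosinophil, basophil and mast cell markers (EPX, PRG2, CLC, HDC, CPA3, TPSAB1 and IL5RA) 6 rose and none fell, and their summed level was 91.2, 2140 and 1123 CPM. With robust estimation CPA3 and TPSAB1 passed and EPX, PRG2, CLC and HDC did not (edgeR adjusted p = 0.29, 0.0698, 0.557 and 0.285). CLC, with 3, 127 and 26 counts, reached the minimum count only after silencing, and PRG2 shares 43% of its exon length with AP000781.2 on the same strand. Of 7 monocyte and macrophage markers 6 were tested and 3 rose, CD68 and FCN1 among them, with sums of 32, 74.3 and 51.8 CPM, and CD163 had 0 counts in the control. FCN1 did not pass with robust estimation (edgeR adjusted p = 0.367) or in DESeq2 (0.31), and another gene covers 81.7% of the exon length of CD68. Of 7 megakaryocyte and platelet markers 2 rose (ITGA2B and GP1BB), with sums of 24.3, 80.4 and 45.9 CPM, and PF4 and GP9 had 0 counts in every library. ITGA2B did not pass with robust estimation (edgeR adjusted p = 0.436), nor GP1BB in DESeq2 (0.0592), and SEPT5, on the same strand, overlaps 64.8% of the exons of GP1BB by length. Their part in the change of SRGN or of the collagens was not tested, and in bulk RNA more cells of a type and more RNA per cell cannot be told apart.

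Markers of the cells that usually make matrix were sparse. Of 10 fibroblast and stromal markers DCN, LUM, TWIST1 and POSTN had 0 counts in all libraries, and PDGFRA and THY1 had at most 1. ACTA2 had 608, 505 and 470 counts and TAGLN 185, 299 and 222, without a call. The list summed to 53.3, 149 and 121 CPM. S100A4, also a leukocyte gene, was its only call (2495, 8118 and 6821 counts, log2 1.60 ± 0.155 SE, edgeR adjusted p = 8.8e-06) and held most of that level. Endothelial markers summed to 0.499, 0.399 and 0.369 CPM, with CDH5, KDR and TEK at no more than 3 counts. Of the epithelial markers, EPCAM had 1367, 1075 and 1370 counts while KRT18, KRT19 and CDH1 had at most 2, and the list summed to 23.1, 18.6 and 23.1 CPM with no call.

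Among the other glycoproteins the hairpins differed most. SPARC, a collagen-binding protein, had 773, 1689 and 800 counts. It was thus high under hairpin 2 alone, at a ratio of 2.26 (exact 95% counting interval 2.07 to 2.46) against 1.03 (0.933 to 1.14) under hairpin 3, and the fit gave 0.72 ± 0.296 (SE; edgeR adjusted p = 0.17). FBN1, the fibrillin of elastic microfibrils, had 195, 99 and 221 counts and was low under hairpin 2 alone (-0.27 ± 0.336). FBN2, its relative from development, had 1567, 2376 and 1594 counts and was high under hairpin 2 alone (0.37 ± 0.196). With 1 library per hairpin these differences between hairpins have no replicate check. FN1, fibronectin, had 78, 110 and 70 counts (0.23 ± 0.354), THBS1, thrombospondin 1, had 7, 12 and 10 (0.66 ± 0.72), and TGFBI, a matrix protein of monocytes and macrophages, had 0, 3 and 2.

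The lysyl oxidases, which cross-link collagen and elastin, showed no call. LOXL3 was the most abundant of the 4, with 1501, 1313 and 1663 counts, on either side of the control (log2 0.005 ± 0.154 SE, a value whose sign changed with the scaling). It shares 14.3% of its exon length with HTRA2 on the other strand. LOXL2 had 101, 76 and 99 counts (-0.19 ± 0.311), LOX had 21, 27 and 26 (0.35 ± 0.493) and LOXL1 had 13, 11 and 9 (-0.35 ± 0.633).

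The calls differed in how they held. COL26A1, COL27A1 and COL4A1 passed in each alternative fit with a filter on low counts, that is with other scaling, DESeq2, a mean CPM of at least 1, robust or legacy variance estimation and a test against a fold change of 1.5. COL26A1 cleared these filters only through the hairpin libraries, where it is high (1.96 and 1.94 CPM, 0.0805 in the control). It therefore had to differ to enter these fits, and its passing in them is no separate check. COL4A2, AGRN, COL7A1, SRGN and COL15A1 did not pass against a fold change of 1.5, SRGN did not pass when genes under a mean CPM of 1 were dropped (edgeR adjusted p = 0.0641; 1.7e-04 to 0.923 over the alternatives), and COL15A1, COL5A1 and COL6A1 did not pass in DESeq2 (adjusted p = 0.121, 0.0636 and 0.098; from 0.00887, 0.00122 and 7.8e-04 to 0.465, 0.465 and 0.47 over the alternatives). Without any filter no gene of the whole table passed.

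The nearest tested protein-coding genes were read beside the called matrix genes, using only the gene order of the annotation. Next to COL4A1 on its other side, IRS2, an adaptor of insulin signalling, fell (14796, 8502 and 8608 counts, -0.77 ± 0.127 SE, edgeR adjusted p = 8.9e-04), while RAB20 beyond COL4A2 had 0.33 ± 0.143. COL27A1 lay between ZNF618, which fell (1904, 911 and 871 counts, -1.07 ± 0.144, adjusted p = 1.4e-04), and ORM1, an acute phase protein gene, which rose (8, 64 and 36 counts, 2.65 ± 0.635, adjusted p = 0.0146). ORM1 reached the minimum count only in the hairpin libraries, where it is high, so it had to differ to be tested. FCN1 beside COL5A1 and TGFBR1 beside COL15A1 also rose (1.52 ± 0.26 and 0.69 ± 0.133, adjusted p = 0.00126 and 0.00317). The nearest tested genes of COL26A1, COL6A1, COL7A1, SRGN and AGRN gave no call on either side.

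Genes that make, bind and turn over matrix were read from 6 lists with 127 tested genes. Of these 24 were higher and 6 lower, 23.6%, beside 8.7% of all genes, with a median log2 fold change of 0.12. DESeq2 called 20 higher and 1 lower, where 5.16% of all genes passed. The lists were drawn up with results of these libraries known. Among 21 enzymes that make and process collagen 5 rose and 3 fell. PLOD3, a lysyl hydroxylase that also adds sugars to collagen, rose from 3873 counts to 8990 and 7765 (1.14 ± 0.147 SE, edgeR adjusted p = 1.1e-04). P4HB, protein disulfide isomerase and a subunit of prolyl hydroxylase, rose by 0.71 ± 0.172 and PPIB, a prolyl isomerase of the endoplasmic reticulum, by 0.69 ± 0.142. Both also fold other secreted proteins, and PPIB shares 27.2% of its exon length with SNX22 on the other strand. ADAMTS2, which trims procollagen, had 21, 0 and 4 counts (-3.29 ± 0.841, edgeR adjusted p = 0.0213). It reached the minimum count only in the control, where it is high, so it had to differ to be tested, and DESeq2 gave it no adjusted p. P3H1 and PLOD1 also rose, and P4HA3 and COLGALT2 fell; P3H1, P4HA3 and COLGALT2 did not pass in DESeq2 (adjusted p = 0.088, 0.302 and 0.0906). The chaperone of collagen itself, SERPINH1, had 2776, 2579 and 2550 counts (-0.09 ± 0.131).

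Enzymes that build glycosaminoglycan chains gave 6 rises and no fall among 25 tested. XYLT1, which adds the first sugar to core proteins such as serglycin, rose from 1748 counts to 5154 and 4403 (log2 1.47 ± 0.153 SE, edgeR adjusted p = 1.6e-05). CHST7 (0.82 ± 0.22) and CHST13 (0.81 ± 0.147) add sulfate to chondroitin, and HS6ST1 (0.62 ± 0.137) adds it to heparan sulfate. CHPF2 and EXT2 were the other rises, and 4 of the 25 genes passed in DESeq2. Among 8 tested proteoglycan and hyaluronan genes BSG, a membrane glycoprotein that induces matrix metalloproteinases, was the only call (0.69 ± 0.147).

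Among 26 tested receptors for matrix 4 rose and 1 fell. MRC2, a receptor that takes up collagen for breakdown, rose from 11558 counts to 27365 and 24598 (1.19 ± 0.154 SE, edgeR adjusted p = 1.0e-04). The syndecans SDC2 (264, 1067 and 801 counts, 1.85 ± 0.219) and SDC1 (70, 214 and 178 counts, 1.51 ± 0.304) and the thrombospondin receptor CD47 (0.56 ± 0.131) rose as well. DAG1, a receptor for laminin, agrin and perlecan, fell by 0.45 ± 0.135 (edgeR adjusted p = 0.0488), a call lost in DESeq2 and with robust estimation (adjusted p = 0.191 and 0.0568; 0.0257 to 1 over the alternatives).

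Of 22 tested proteases and inhibitors 5 rose, the gelatinase MMP9 (627, 3430 and 2369 counts, 2.23 ± 0.21 SE), its family's inhibitors TIMP1 (2264, 4325 and 4021 counts, 0.90 ± 0.139) and TIMP2 (1533, 3837 and 3119 counts, 1.20 ± 0.16), and the cathepsins CTSS and CTSB. ADAMTS5, an aggrecan-cleaving protease and the 1 lower call, had 37, 8 and 6 counts (-2.36 ± 0.558, edgeR adjusted p = 0.0134). It too reached the minimum count only in the control, had no adjusted p in DESeq2 and did not pass against a fold change of 1.5 (adjusted p = 0.0636; 0.00527 to 0.47 over the alternatives). MMP9 shares 18.4% of its exon length with SLC12A5-AS1. Of 25 other glycoproteins 3 rose and 1 fell. MMRN2 had 36, 250 and 138 counts (2.45 ± 0.426), TNR had 119, 436 and 198 (1.44 ± 0.381), and THBS3 fell from 1125 to 571 and 678 (-0.83 ± 0.162). LTBP1, which holds latent TGF-beta in the matrix, had 0 counts in the control and 23 and 8 under the hairpins. The mean CPM of the hairpin libraries was 5.29-fold the control floor of 3 counts, and hairpin 2 gave most of it. LTBP1 reached the minimum count only after silencing, and DESeq2 gave it no adjusted p. THBS3 shares 22.2% of its exon length with AC234582.1 on the other strand. TNR and LTBP1 were lost with robust estimation (edgeR adjusted p = 0.428 and 0.0529; 0.005 and 0.0137 to 0.514 and 0.47 over the alternatives).

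**Figure D4:**
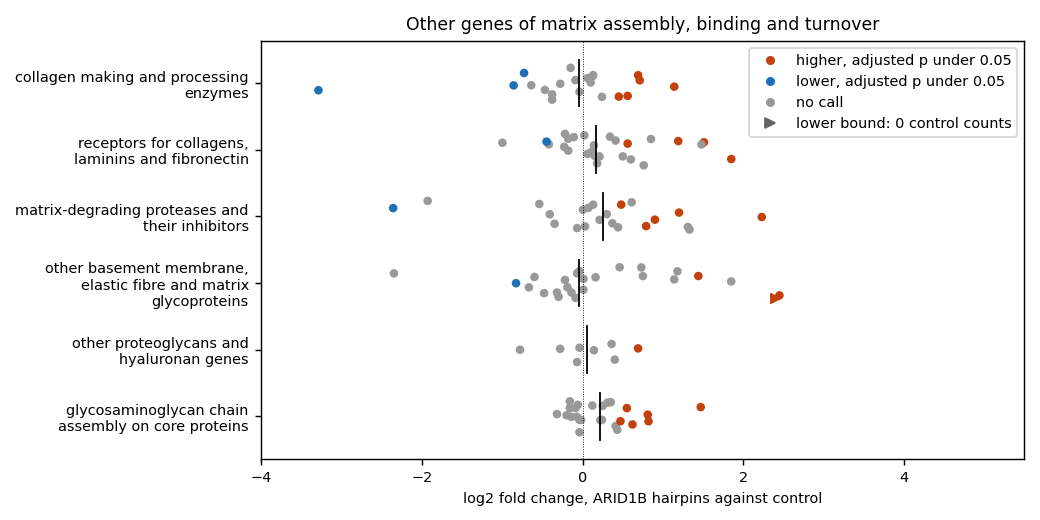
Log2 fold change of the 127 tested genes in the 6 pathway lists, 1 point per gene, with a black line at each list's median and a triangle at the lower bound for LTBP1. Calls lie on both sides of 0 for collagen processing (5 higher, 3 lower) and on the higher side for glycosaminoglycan assembly (6 higher, 0 lower).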

How the data were processed

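The file that the authors deposited holds raw counts per Ensembl gene ID for 3 polyA RNA libraries. STAR, featureCounts, Cufflinks and hg19 are named, without versions, per the submitters' processing notes. Annotation and strand setting: not given in the sources used here. GENCODE release 29, of another build, named 52338 of the 57773 IDs and gave exon lengths and overlaps, and no coordinates were taken from it.

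The fit used edgeR 4.0.16 under R 4.3.3 (filterByExpr at a minimum count of 10, TMM scaling, glmQLFit with legacy = FALSE, glmQLFTest, two-sided), checked on simulated data. It left 1 residual degree of freedom per gene, beside 14.8 prior degrees of freedom shared over all genes. SE is the log2 fold change over the root of its F statistic. CPM uses TMM-scaled library sizes. Counting intervals are exact binomial at 95%. Intervals and floors cover counting error only, since reads carry no molecular identifiers. DESeq2 1.42.0 was an alternative.

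The matrix genes and lists were chosen with earlier results of these data known. Named genes were ARID1B, each called gene, those averaging at least 10 CPM, the 5 highest per kb, the 3 largest without a call, the 3 furthest apart between hairpins, their chain partners, and up to 4 per pathway list, called genes first. Other named genes were chosen after their values were seen. MMP12, MMP28, CCN1, CCN2 and PECAM1, on the lists, matched no row and were not used. A few single genes are not reported here.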

Additional observations from a re-analysis of the deposited data

How the results depend on the processing

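The count of matrix genes called was 6 higher and 4 lower. It was 3 higher and 2 lower of 38 tested against a fold change of 1.5, where 2.24% of all genes passed. Without a filter on low counts it was 0 and 0, where 0% of all genes passed (edgeR, 66 matrix genes tested, 12 of them at an unadjusted p under 0.05). Other scalings, DESeq2, a mean CPM of at least 1 and robust or legacy estimation kept both counts within 1.5 times. Of all genes, 5.16% passed in DESeq2. At a mean CPM of at least 1 that share was 6.41%, with 25 matrix genes tested. The median log2 fold change of the matrix genes was 0.26 without a filter, and between 0.03 and 0.17 with 1 hairpin library left out. ARID1B had -1.23 without a filter (adjusted p = 0.465) and passed in the other fits; with 1 hairpin left out its change was -1.24 or -1.21, a value with no test. Genes of the pathway lists, 24 higher and 6 lower, numbered 8 and 0 against a fold change of 1.5 and 0 and 0 without a filter (DESeq2 gave 1 lower, a mean CPM of at least 1 gave 2 lower). LOXL3 changed sign, to -0.04 with upper quartile factors, -0.01 with library size alone and -0.001 at a mean CPM of at least 1. Why these values moved with the filter or the scaling was not examined, so the cause was not tested. With 1 hairpin library left out, each of the 10 called genes kept its side of the control. This restates the counts per hairpin given above and is no separate check. No paired analysis was possible because there was a single control library, and the numbers 2 and 3 name hairpins. The filter on low counts left 32 matrix genes untested, none with more than 9 counts in a library.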
